A study of Mus musculus with 12 samples.

Results

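The Schlafen genes (*Slfn*) measured here are *Slfn1*, *Slfn2*, *Slfn3*, *Slfn4*, *Slfn5*, *Slfn8* and *Slfn9*, which were chosen by name among the 55471 genes of the count table, so that 7 genes are described. RNA-seq was performed on dendritic cells (DCs) that had been grown from the bone marrow of adult female C57BL/6 mice in GM-CSF, a myeloid growth factor. The cells were transduced with a retrovirus that carried a short hairpin RNA (shRNA) and a human CD8 reporter, on which transduced cells were sorted. The study asked how loss of *Ppargc1b*, which encodes the co-activator of transcription PGC-1β, alters DCs at rest and during the response to interferon-β (IFN-β).

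The 12 libraries formed 4 groups of 3. In the shControl unstimulated group the hairpin was directed against firefly luciferase, a gene that mouse cells lack, and no cytokine was added. In the shControl IFN-β group the same hairpin was followed by 6 h of IFN-β. The sh*Ppargc1b* unstimulated and sh*Ppargc1b* IFN-β groups differed from these only in the hairpin, which was directed against *Ppargc1b*. All 4 groups therefore carried a retrovirus and had been grown in GM-CSF. Replicate numbers below follow the order of the deposited records. No label says that they came from separate cultures or mice, so p-values measure the spread between these libraries, which may be technical. The main tests did not pair libraries across groups.

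Libraries held 49919648 to 77726101 counts, and all 7 genes were among the 18228 that passed the filter on low counts. Levels are given as CPM (counts scaled to library size) after TMM scaling, which sets library sizes by the trimmed mean of log ratios between libraries, and as CPM per kilobase of exon (RPKM) wherever genes are compared with each other. *Ppargc1b* itself was at 34.5 ± 1.94 CPM (SD, n = 3) in shControl unstimulated and 19.4 ± 0.851 CPM (n = 3) in sh*Ppargc1b* unstimulated cells, which is 56.3% of the control level, and with IFN-β it was at 67.2% of the control level. The knockdown was therefore partial. Some markers of DCs were abundant, among them *Itgax* at 901 to 1182 CPM and *Cd74* at 1905 to 2856 CPM. Others were much lower, with *Zbtb46* at 16.5 to 33.5 CPM, *Batf3* at 8.67 to 13.3 CPM and *Flt3* at 1.45 to 3.81 CPM. *Cd209a* reached at most 11 counts in a library. Macrophage markers such as *Csf1r* were also abundant, at 1159 to 1247 CPM, whereas *Marco* was at 2.30 to 12.2 CPM. The summed level of 9 lymphocyte markers stayed between 0.491 and 1.36 CPM. In bulk RNA, a change in the number of cells that express a gene and a change in its RNA per cell cannot be told apart.

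Schlafen genes are a vertebrate family whose transcripts rise in immune cells after type I interferon. Their proteins share an N-terminal region that resembles a tRNA-cutting nuclease, and members of the longest class also carry a C-terminal helicase-like region and a nuclear targeting signal. Family members are known for holding lymphocytes in quiescence (*Slfn2*), for cleaving tRNA under stress and for restricting virus replication, and *Slfn4* is a known marker of activated myeloid cells. Mouse members are sorted by length into a short class (*Slfn1* and *Slfn2*), an intermediate class (*Slfn3* and *Slfn4*) and a long class (*Slfn5*, *Slfn8* and *Slfn9*).

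All 7 genes lie in a 263.8 kb stretch of chromosome 11 in GRCm38, from base 82951349 to base 83215154. In the order of the chromosome these are *Slfn5* (82951349 to 82964840, plus strand), *Slfn9* (82978390 to 82991830, minus strand), *Slfn8* (83002158 to 83020810, minus strand), *Slfn2* (83065112 to 83070678, plus strand), *Slfn1* (83116849 to 83122670, plus strand), *Slfn4* (83175186 to 83190216, plus strand) and *Slfn3* (83191330 to 83215154, plus strand). The pseudogene *Slfn10-ps* lies between *Slfn8* and *Slfn2*. Translated coding sequences of the GENCODE annotation gave proteins of 337 residues for *Slfn1*, 378 for *Slfn2*, 640 for *Slfn3*, 602 for *Slfn4*, 884 for *Slfn5* and 910 for both *Slfn8* and *Slfn9*. The closest pairs were *Slfn8* and *Slfn9*, whose proteins were 85.8% identical over the aligned residues, and *Slfn3* and *Slfn4*, at 83.9%. *Slfn1* and *Slfn2* were 55.3% identical, and *Slfn5* was 42.7% identical to *Slfn8*.

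By short motifs that were chosen after the sequences had been read, the promoters of the members can be sorted into 2 kinds. From each promoter 80 bases are shown because the genes rise together with IFN-β below. The sequences are from RefSeq (GRCm38.p6), which held windows for 7 of 7 members. They are written 5′ to 3′ along the strand of the gene, and capitals mark motif matches. Distances run to the RefSeq start, which for *Slfn1* lies 29 bases before the GENCODE start given above and for *Slfn5* lies 753 bases inside the gene as GENCODE draws it.
*Slfn5*, chr11:82951912-82951991, plus strand, from 190 to 111 bases before the RefSeq start: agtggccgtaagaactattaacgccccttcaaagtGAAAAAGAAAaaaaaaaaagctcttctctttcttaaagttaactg
*Slfn8*, chr11:83020821-83020900, minus strand, from 90 to 11 bases before the start: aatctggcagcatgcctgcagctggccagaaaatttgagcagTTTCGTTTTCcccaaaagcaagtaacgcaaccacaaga
*Slfn9*, chr11:82991841-82991920, minus strand, from 90 to 11 bases before the start: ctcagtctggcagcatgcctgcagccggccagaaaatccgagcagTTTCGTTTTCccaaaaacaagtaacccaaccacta
*Slfn1*, chr11:83116730-83116809, plus strand, from 90 to 11 bases before the start: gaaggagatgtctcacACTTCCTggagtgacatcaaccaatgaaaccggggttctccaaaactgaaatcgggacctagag
*Slfn2*, chr11:83065022-83065101, plus strand, from 90 to 11 bases before the start: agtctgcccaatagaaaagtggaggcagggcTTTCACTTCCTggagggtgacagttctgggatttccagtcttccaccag
*Slfn3*, chr11:83191240-83191319, plus strand, from 90 to 11 bases before the start: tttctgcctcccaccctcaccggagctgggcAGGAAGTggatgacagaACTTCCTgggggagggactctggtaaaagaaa
*Slfn4*, chr11:83175096-83175175, plus strand, from 90 to 11 bases before the start: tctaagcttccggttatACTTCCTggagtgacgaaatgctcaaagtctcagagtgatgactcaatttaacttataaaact

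In the 3 long-class promoters the capitals mark GAAA, any 2 bases and GAAA again, or the reverse complement of this, which is the core of the interferon-stimulated response element (ISRE), through which type I interferon switches on its target genes. The match lay 155 to 146 bases before the start in *Slfn5*, 48 to 39 in *Slfn8* and 45 to 36 in *Slfn9*, and in *Slfn5* it ran into a longer stretch of A. The first base of the GENCODE gene *Slfn5* belongs to a non-coding transcript, and the stretch shown lies within that transcript, with 7 of its 80 bases in exons and the rest in an intron, and before the start of each coding transcript. The same letters were found on either strand in the 250 bases before the start of 3.46% of 27025 genes. In the short and intermediate classes the capitals mark AGGAAGT or its reverse complement ACTTCCT, a core that ETS factors such as PU.1 recognise, which was found before 8.80% of genes. It occurred in *Slfn1*, *Slfn2* and *Slfn4* in the minus direction of the gene and in *Slfn3* in either direction. In *Slfn2* it overlapped TTTCACTTCC, a match to the reverse complement of the ETS-IRF composite (GGAA, any 2 bases, GAAA), which was found before 2.68% of genes. The interferon-γ-activated site (GAS), searched as TTC, any 3 bases and GAA, was found before 8.13% of genes and before none of the members. *Slfn8* and *Slfn9* shared a run of 20 bases, TCTGGCAGCATGCCTGCAGC, and *Slfn1* and *Slfn4* shared a run of 15, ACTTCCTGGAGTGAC. The motifs were chosen after the sequences had been read, and a match is a description of letters, not of binding.

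Without IFN-β the short-class gene *Slfn2* was the most abundant member per kilobase of exon. In shControl unstimulated cells the mean levels per length were 127 ± 2.05 RPKM (SD, n = 3) for *Slfn2*, 38.9 ± 5.21 for *Slfn5*, 26.7 ± 3.37 for *Slfn1*, 22.5 ± 3.51 for *Slfn8*, 6.72 ± 1.56 for *Slfn4*, 4.52 ± 0.227 for *Slfn9* and 4.35 ± 0.365 for *Slfn3*. The ranges of *Slfn1* and *Slfn8* overlapped, as did those of *Slfn9* and *Slfn3*, and the other neighbours in this order did not. The means stood in the same order in all 4 groups. In sh*Ppargc1b* unstimulated cells the ranges of *Slfn9* and *Slfn3* overlapped again, and in both IFN-β groups no neighbours overlapped. After IFN-β in shControl the levels per length were 350 ± 1.03 RPKM for *Slfn2*, 299 ± 4.54 for *Slfn5*, 203 ± 5.64 for *Slfn1*, 176 ± 11.6 for *Slfn8*, 104 ± 8.42 for *Slfn4*, 57.6 ± 1.66 for *Slfn9* and 24.7 ± 0.287 for *Slfn3*. Of the other family genes in the table, *Slfn14* had 0 to 2 counts in each library, and *Slfnl1*, which lies on chromosome 4, had 1 to 14.

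Each member was more abundant in every IFN-β library than in any unstimulated library with either hairpin. Summed over the 7 genes, the level was 642, 736 and 624 CPM in the shControl unstimulated libraries, 4290, 4538 and 4416 CPM in shControl IFN-β, 662, 708 and 742 CPM in sh*Ppargc1b* unstimulated, and 3705, 3720 and 3769 CPM in sh*Ppargc1b* IFN-β. The family thus took 0.0679 to 0.0800% of all counts without the cytokine and 0.344 to 0.414% with it. The smallest fold changes belonged to *Slfn2*, the member with the highest resting level per kilobase of exon, and the largest to *Slfn4*.

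**Figure D1:**
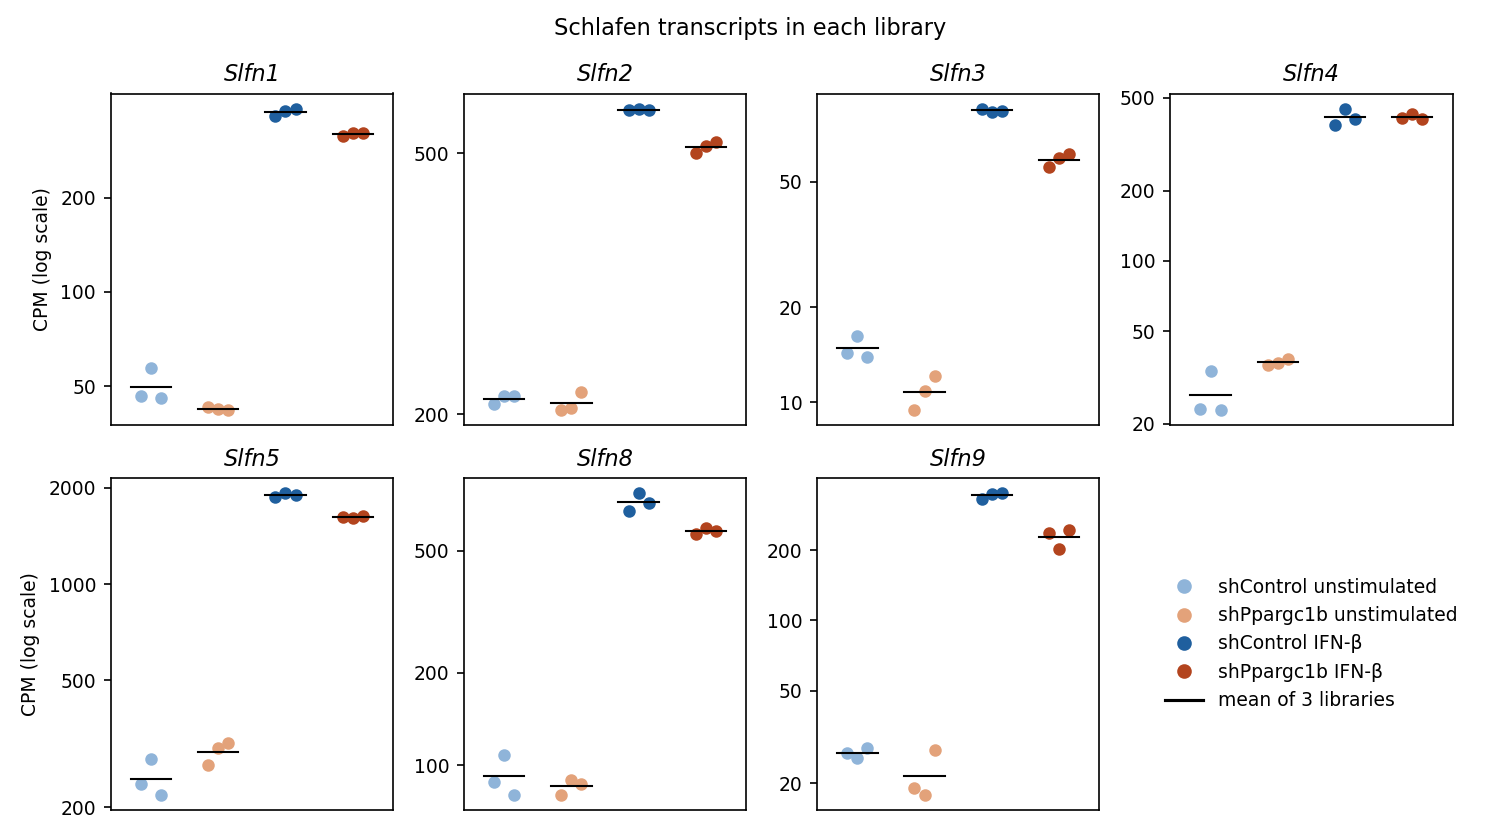
CPM of each Schlafen gene in each of the 12 libraries on a log axis with its own range per panel, with points for libraries and lines for the mean of 3. All IFN-β points lie far above the unstimulated points, and with IFN-β the sh*Ppargc1b* points lie below the shControl points for every gene but *Slfn4*.

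In the short class, *Slfn1* stood at 46.4, 57.0 and 45.9 CPM in the shControl unstimulated libraries and at 366, 381 and 386 CPM in the shControl IFN-β libraries. In sh*Ppargc1b* cells it stood at 42.7, 42.3 and 41.9 CPM without IFN-β and at 316, 323 and 323 CPM with it. The level was thus multiplied by the same factor in both kinds of cell, from a lower start in sh*Ppargc1b* cells. The log2 fold change with IFN-β was 2.92 ± 0.07 (SE) in shControl (adjusted p = 1.21e-14, edgeR) and 2.92 ± 0.07 in sh*Ppargc1b* (adjusted p = 1.84e-14), which is 7.59-fold in each.

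*Slfn2*, whose loss breaks the quiescence of T cells, stood at 207, 213 and 213 CPM in shControl unstimulated and at 582, 585 and 582 CPM in shControl IFN-β. Its levels in sh*Ppargc1b* cells were 203, 205 and 216 CPM without IFN-β and 501, 513 and 520 CPM with it. The resting levels of the 2 hairpins overlapped, whereas the IFN-β levels did not. IFN-β raised *Slfn2* by 1.46 ± 0.04 on the log2 scale in shControl (2.76-fold, adjusted p = 3.34e-14) and by 1.30 ± 0.04 in sh*Ppargc1b* (2.46-fold, adjusted p = 1.80e-13).

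In the intermediate class, *Slfn3* was the scarcest member and *Slfn4* the most inducible. *Slfn3* stood at 14.3, 16.3 and 13.9 CPM in shControl unstimulated and at 85.2, 83.2 and 83.9 CPM in shControl IFN-β. In sh*Ppargc1b* cells it stood at 9.46, 10.9 and 12.1 CPM without IFN-β and at 55.5, 59.4 and 61.1 CPM with it. Every sh*Ppargc1b* library was below every shControl library of the same treatment. With IFN-β its log2 fold change was 2.50 ± 0.08 in shControl (5.66-fold, adjusted p = 2.88e-13) and 2.44 ± 0.08 in sh*Ppargc1b* (5.41-fold, adjusted p = 6.44e-13).

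*Slfn4*, the myeloid activation marker, stood at 23.2, 33.7 and 22.9 CPM in shControl unstimulated and at 384, 450 and 406 CPM in shControl IFN-β. It stood at 35.9, 36.3 and 37.8 CPM in sh*Ppargc1b* unstimulated and at 408, 425 and 407 CPM in sh*Ppargc1b* IFN-β. Resting levels were thus higher with the *Ppargc1b* hairpin in all 3 libraries, and the levels reached with IFN-β were alike. IFN-β raised it by 3.95 ± 0.12 on the log2 scale in shControl (15.5-fold, adjusted p = 1.74e-13) and 3.49 ± 0.11 in sh*Ppargc1b* (11.3-fold, adjusted p = 7.41e-13).

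In the long class, *Slfn5*, whose human counterpart has been linked to the control of interferon-driven transcription, had the most counts of all members. It stood at 236, 283 and 219 CPM in shControl unstimulated and at 1866, 1923 and 1893 CPM in shControl IFN-β. In sh*Ppargc1b* cells it stood at 272, 307 and 319 CPM without IFN-β and at 1619, 1604 and 1635 CPM with it. The resting libraries of the 2 hairpins overlapped, with shControl replicate 2 above sh*Ppargc1b* replicate 1, whereas the IFN-β libraries did not. The log2 fold change with IFN-β was 2.94 ± 0.08 in shControl (7.70-fold, adjusted p = 7.41e-14) and 2.44 ± 0.08 in sh*Ppargc1b* (5.41-fold, adjusted p = 7.44e-13).

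*Slfn8*, a long-class member with the helicase-like region, stood at 88.1, 108 and 80.1 CPM in shControl unstimulated and at 675, 769 and 714 CPM in shControl IFN-β. In sh*Ppargc1b* cells it stood at 80.1, 89.6 and 86.9 CPM without IFN-β and at 568, 591 and 578 CPM with it. As with *Slfn5*, the resting levels overlapped and the IFN-β levels did not. IFN-β gave log2 fold changes of 2.97 ± 0.09 in shControl (7.81-fold, adjusted p = 2.03e-13) and 2.76 ± 0.09 in sh*Ppargc1b* (6.77-fold, adjusted p = 6.22e-13).

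*Slfn9*, its neighbour on the same strand, stood at 26.9, 25.6 and 28.3 CPM in shControl unstimulated and at 333, 347 and 351 CPM in shControl IFN-β. In sh*Ppargc1b* cells it stood at 19.1, 17.9 and 27.7 CPM without IFN-β and at 238, 203 and 245 CPM with it. Replicate 3 of the sh*Ppargc1b* unstimulated group lay within the range of the shControl libraries, and the other two lay below. The response to IFN-β was 3.67 ± 0.13 on the log2 scale in shControl (12.8-fold, adjusted p = 1.13e-12) and 3.40 ± 0.13 in sh*Ppargc1b* (10.6-fold, adjusted p = 3.65e-12).

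All 7 members therefore rose with IFN-β in shControl, where 23.7% of all genes tested rose, and all 7 rose in sh*Ppargc1b*, where 21.4% did. Each member also at least doubled with an adjusted p under 0.05, which 7.15% of genes did in shControl and 5.65% in sh*Ppargc1b*. The libraries did not overlap for any member, which held in the same direction for 27.2% and 24.7% of genes. The median log2 fold change over the members was 2.94 in shControl and 2.76 in sh*Ppargc1b*, against -0.03 and -0.02 over all genes tested. The 2 comparisons used different libraries, but the members had been chosen as an interferon-linked family.

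**Figure D2:**
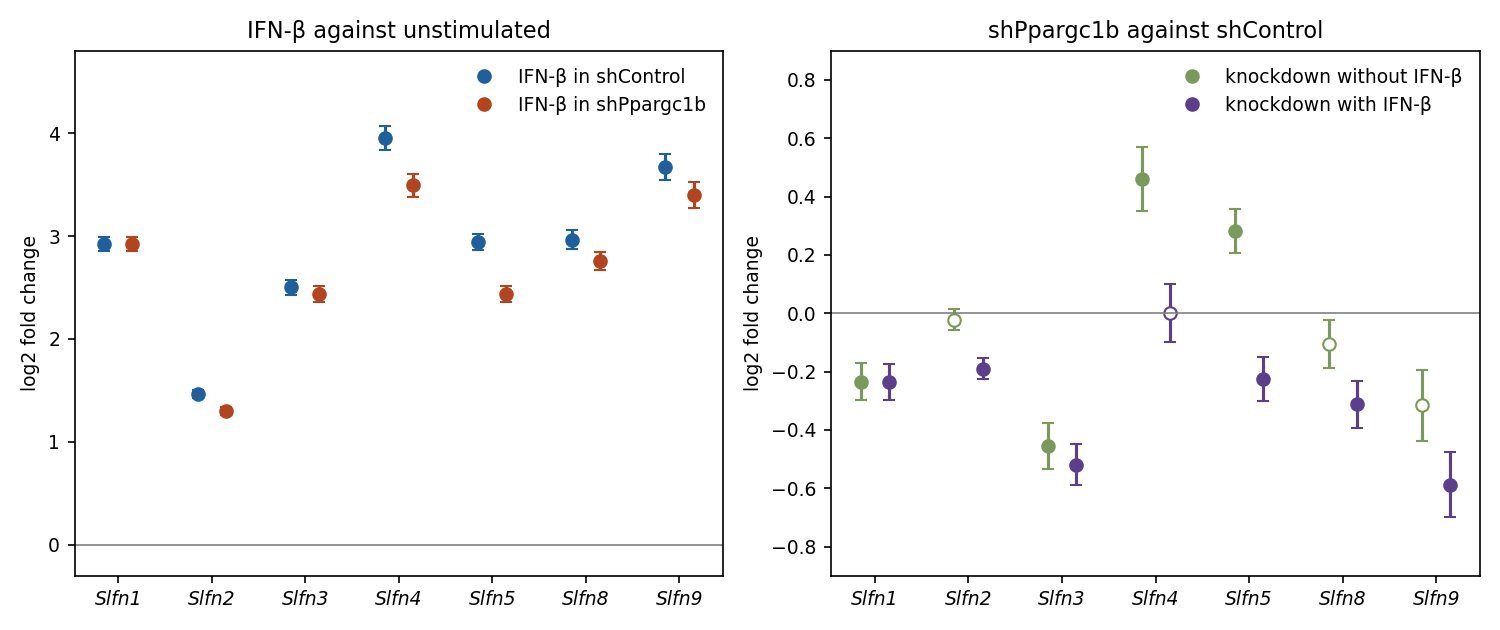
The log2 fold change of each member with its SE, for IFN-β against unstimulated in each kind of cell (left) and for the knockdown at rest and under IFN-β (right), with open circles where the adjusted p was 0.05 or above. *Slfn4* and *Slfn9* had the largest responses to IFN-β, and the effect of the knockdown on *Slfn5* was above 0 without IFN-β and below 0 with it.

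Because the members responded to different degrees, the make-up of the summed family level changed with IFN-β. By RPKM, *Slfn2* held 55.2 ± 3.10% of the family level (SD, n = 3) in shControl unstimulated and 28.9 ± 0.644% in shControl IFN-β. *Slfn5* held 16.8 ± 1.23% and 24.6 ± 0.247% in the same groups, and *Slfn4* held 2.89 ± 0.477% and 8.58 ± 0.485%. The share of *Slfn9* was 1.97 ± 0.209% and 4.74 ± 0.0865%, and that of *Slfn3*, the least abundant member, was 1.89 ± 0.0429% and 2.03 ± 0.0744%. The same movement was seen in sh*Ppargc1b* cells, where *Slfn2* held 53.9 ± 0.839% without and 29.6 ± 0.225% with IFN-β. The shares depend on the length given to each gene. By CPM without length, *Slfn2* held 31.8% in shControl unstimulated and 13.2% in shControl IFN-β, and *Slfn5* held the largest share, at 36.8% and 42.9%.

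**Figure D3:**
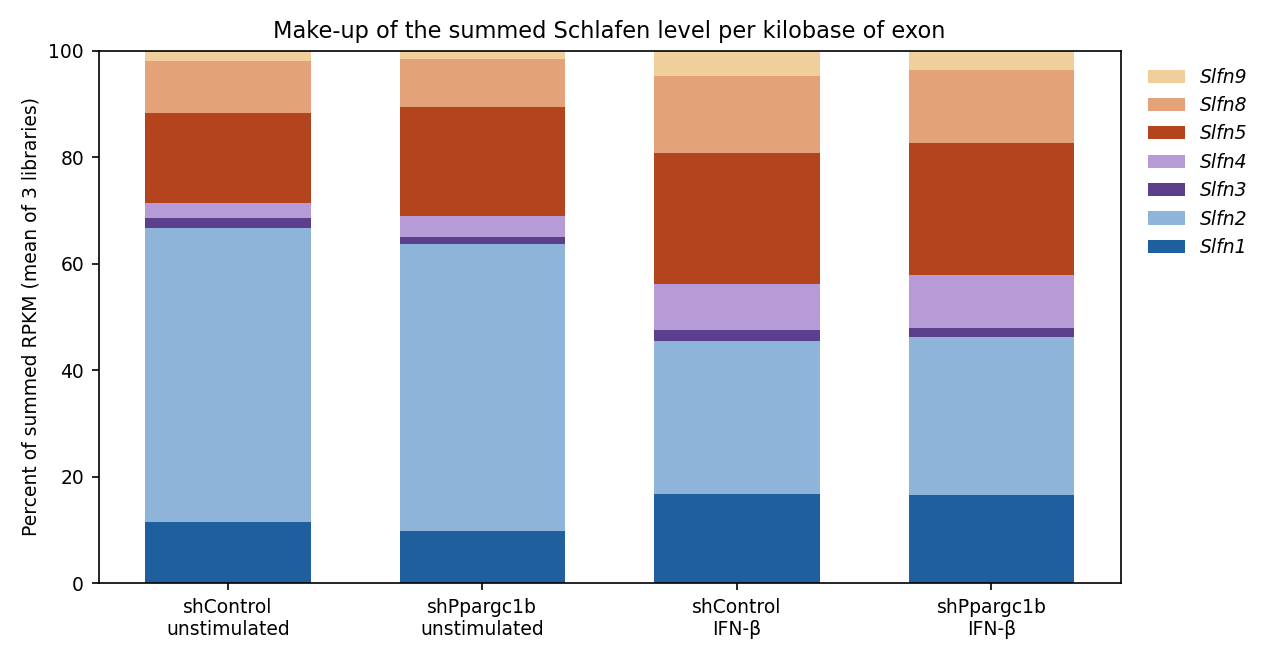
Stacked bars of the mean percent of the summed RPKM that each member held in each group (3 libraries a group). The share of *Slfn2* fell from 55.2% to 28.9% in shControl and from 53.9% to 29.6% in sh*Ppargc1b* with IFN-β, while those of *Slfn5*, *Slfn1*, *Slfn8*, *Slfn4* and *Slfn9* were larger.

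Without IFN-β the knockdown of *Ppargc1b* was accompanied by changes of either direction in the family. *Slfn4* and *Slfn5* were higher in sh*Ppargc1b* cells, by 0.46 ± 0.11 and 0.28 ± 0.08 on the log2 scale (adjusted p = 0.00604 and 0.0123, edgeR), while *Slfn3* fell by 0.45 ± 0.08 (adjusted p = 5.79e-04). *Slfn1* fell by 0.23 ± 0.06 (adjusted p = 0.0148). The other members did not pass the test, with log2 fold changes of -0.02 ± 0.04 for *Slfn2* (adjusted p = 0.721), -0.11 ± 0.08 for *Slfn8* (0.419) and -0.32 ± 0.12 for *Slfn9* (0.0779). The 2 members that rose compare with 12.4% of all genes tested, and the 2 that fell with 11.1%. The libraries of the 2 hairpins did not overlap for *Slfn1* and *Slfn3*, which were lower, nor for *Slfn4*, which was higher, and they overlapped for *Slfn5*. Over all genes tested, 18.4% had libraries that did not overlap in the lower direction and 18.4% in the higher.

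Several of these resting calls turned on single libraries. The library shControl unstimulated replicate 2 was the highest of its group for *Slfn1*, *Slfn3*, *Slfn4*, *Slfn5* and *Slfn8*, and its summed level of 16 canonical interferon-stimulated genes was also the highest, at 666 CPM against 552 and 505 CPM in the others. In sh*Ppargc1b* unstimulated libraries that sum was 621, 664 and 739 CPM. Without that control library the difference was 0.67 for *Slfn4* (adjusted p = 4.57e-06) and 0.40 for *Slfn5* (2.65e-04), and that of *Slfn1* was -0.12 (0.0554) and no longer passed. Leaving out shControl unstimulated replicate 1 or 3 or sh*Ppargc1b* unstimulated replicate 3 instead left *Slfn5* at adjusted p values of 0.0556, 0.0639 and 0.0585, which did not pass, with differences of 0.25, 0.21 and 0.24. For *Slfn9*, leaving out sh*Ppargc1b* unstimulated replicate 3 gave -0.54 (adjusted p = 1.37e-04).

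Markers of other cells moved with the hairpin as well. The summed level of 10 neutrophil markers was 42.7, 97.5 and 77.8 CPM in the shControl unstimulated libraries and 110, 92.0 and 162 CPM in the sh*Ppargc1b* unstimulated libraries. Of the 10, 2 were higher with the knockdown, against 12.4% of all genes, namely *S100a8* by 0.83 ± 0.26 on the log2 scale (adjusted p = 0.0322) and *Cxcr2* by 0.74 ± 0.22 (0.0214). The median difference of the 10 was 0.53. *Elane*, *Mpo*, *Retnlg* and *Ly6g* had differences of -1.46, -0.92, -0.78 and -0.42 that did not pass. Each of these was at most 1.10 CPM in a library. *S100a9*, *Ngp*, *Camp* and *Ltf* had positive differences that did not pass either. Of 6 mast cell or basophil markers 2 were higher with either treatment, against 12.4% of all genes without IFN-β and 11.5% with it. At rest *Gata2* was higher by 1.64 ± 0.19 (adjusted p = 1.20e-05) and *Kit* by 0.93 ± 0.12 (3.09e-05). The summed level of the 6 was 8.71 to 16.6 CPM in shControl unstimulated and 22.1 to 25.7 CPM in sh*Ppargc1b* unstimulated libraries, with no overlap. With IFN-β the sums overlapped, at 7.64 to 14.6 CPM in shControl and 12.8 to 21.1 CPM in sh*Ppargc1b* libraries. Of 9 macrophage markers 3 were lower without IFN-β and 5 with it, against 11.1% and 12.7% of all genes. Their sum was 2663 to 2789 CPM in shControl unstimulated and 2419 to 2481 CPM in sh*Ppargc1b* unstimulated cells. Of 11 DC markers, 10 could be tested and 5 were higher in sh*Ppargc1b* cells with either treatment, against 12.4% and 11.5% of all genes. The part of these cells in the levels of *Slfn4* and the other members was not tested.

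With IFN-β, 6 of the 7 members were lower in sh*Ppargc1b* than in shControl cells, where 12.7% of all genes tested were lower and 11.5% higher. *Slfn9* fell by 0.59 ± 0.11 on the log2 scale (adjusted p = 0.00109, edgeR), to 0.665 times the control level, and *Slfn3* fell by 0.52 ± 0.07 (adjusted p = 6.57e-05), to 0.698 times that level. *Slfn8* fell by 0.31 ± 0.08 (adjusted p = 0.0107), *Slfn1* by 0.24 ± 0.06 (0.0104), *Slfn5* by 0.23 ± 0.07 (0.0377) and *Slfn2* by 0.19 ± 0.04 (0.00115). *Slfn4* stood at 413 ± 33.4 CPM (SD, n = 3) in shControl IFN-β and 413 ± 10.1 CPM in sh*Ppargc1b* IFN-β, and its log2 fold change had an SE of 0.10. The libraries of the 2 hairpins did not overlap for the 6 members that fell, a pattern that 20.7% of genes showed in this direction. No member rose in this comparison, also at an unadjusted p under 0.05 and with DESeq2 or limma. The fall of *Slfn5* was the least secure of the 6: it did not pass in 11 of 20 alternative analyses, which included leaving out any single IFN-β library, with adjusted p up to 0.0755 and differences from -0.25 to -0.20.

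Each member's response to IFN-β was as large or smaller in sh*Ppargc1b* than in shControl cells, and the difference between the 2 responses (the interaction) passed the test for *Slfn5*. It was -0.51 ± 0.11 on the log2 scale for *Slfn5* (adjusted p = 0.0383, edgeR), a direction in which 0.669% of all genes tested passed. That value joins a higher resting level with a lower level under IFN-β in the same cells. For *Slfn4* the interaction was -0.46 ± 0.15 (adjusted p = 0.213), where a higher resting level met an equal level with IFN-β. For *Slfn9* it was -0.27 ± 0.17 (0.636), for *Slfn8* -0.21 ± 0.12 (0.597), for *Slfn2* -0.17 ± 0.05 (0.182) and for *Slfn3* -0.06 ± 0.11 (0.910). For *Slfn1* the responses of 2.92 in both kinds of cell left an interaction with an SE of 0.09 (adjusted p = 0.999). The interaction of *Slfn5* lost its call in 11 of 19 alternative analyses, where adjusted p reached 0.128, and that of *Slfn4* was -0.65 (adjusted p = 0.00171) without shControl unstimulated replicate 2.

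For the 2 close pairs, levels were also set against each other within each library, as a ratio of counts that no scaling between libraries can change. The ratio of *Slfn4* to *Slfn3* counts was 1.62, 2.07 and 1.64 in shControl unstimulated and 3.79, 3.35 and 3.12 in sh*Ppargc1b* unstimulated libraries. It was 4.51, 5.40 and 4.84 in shControl IFN-β and 7.34, 7.16 and 6.67 in sh*Ppargc1b* IFN-β libraries. No groups overlapped, and the ratio was higher with IFN-β and higher with the knockdown. The ratio of *Slfn8* to *Slfn9* counts was 3.27, 4.21 and 2.83 in shControl unstimulated, 4.19, 5.01 and 3.13 in sh*Ppargc1b* unstimulated, 2.03, 2.22 and 2.03 in shControl IFN-β and 2.39, 2.91 and 2.36 in sh*Ppargc1b* IFN-β libraries. Here the resting groups overlapped, and with IFN-β the knockdown libraries lay above the control libraries. These ratios were formed after the levels had been seen and carry no test.

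**Figure D4:**
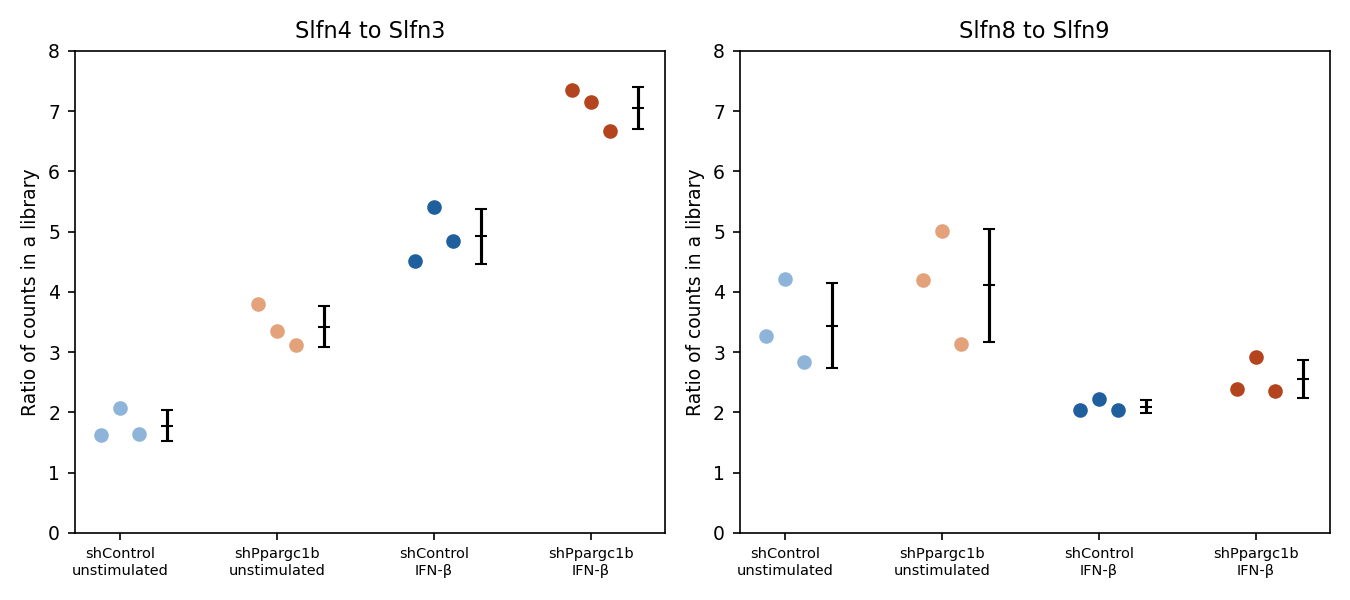
The ratio of *Slfn4* to *Slfn3* counts (left) and of *Slfn8* to *Slfn9* counts (right) in each library, with the mean and SD of 3 libraries in black beside the points. The *Slfn4* to *Slfn3* ratio went from a mean of 1.78 in shControl unstimulated to 7.05 in sh*Ppargc1b* IFN-β libraries, and the *Slfn8* to *Slfn9* ratio was lower with IFN-β.

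Reads that fit more than 1 place were not counted, so near-identical copies could lose counts. Of the 100-base windows of the longest transcript, 0% for *Slfn1*, 0.128% for *Slfn2* and 0.285% for *Slfn4* also occurred in a transcript of another gene, against 3.62% for *Slfn3*, 3.71% for *Slfn8* and 3.90% for *Slfn9*. Despite the 83.9% protein identity of *Slfn3* and *Slfn4*, the windows of *Slfn3* were shared mostly with the pseudogene *Gm11427*. *Slfn5* shared 6.85% of windows, nearly all with *Slfn5os*, an antisense gene that overlaps 8.84% of its exon bases. *Slfn5os* was at 0.0916 to 1.14 CPM. When counts of *Slfn3* and *Slfn4* were summed, the knockdown difference was 0.20 without IFN-β (adjusted p = 0.129) and -0.08 with it (0.573), so the calls of *Slfn3* and of *Slfn4* rest on their separate counts.

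*Slfn10-ps*, the pseudogene between *Slfn8* and *Slfn2*, had counts in every library as well. It stood at 40.4, 40.8 and 39.0 CPM in shControl unstimulated, 113, 116 and 125 CPM in shControl IFN-β, 43.7, 44.5 and 43.1 CPM in sh*Ppargc1b* unstimulated, and 91.9, 96.7 and 102 CPM in sh*Ppargc1b* IFN-β libraries. Its response to IFN-β, 1.56 ± 0.05 on the log2 scale with the control hairpin and 1.15 ± 0.05 with the *Ppargc1b* hairpin, was close in size to that of *Slfn2* and below those of *Slfn8* and *Slfn9*, with which it shared 7.84% of its windows. Its interaction was -0.41 ± 0.07 (adjusted p = 0.0117). It was 0.13 ± 0.05 higher in sh*Ppargc1b* cells without IFN-β (adjusted p = 0.0740), which did not pass, and it fell by 0.28 ± 0.05 with IFN-β (adjusted p = 3.80e-04).

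Of 15 other annotated genes inside the cluster 7 could be tested, and 6 rose with IFN-β in each kind of cell, with *Slfn10-ps* the only one of them above 10 CPM on average. Among the 6, *Mir7679* lies within the bounds of *Slfn9* and *Gm27598* within those of *Slfn10-ps*, each on the same strand. *Slfn5os* overlaps *Slfn5*. Whether their counts are separate from those of these larger genes was not tested. Within 200000 bases on either side, 14 of 18 genes could be tested, of which 5 rose and 4 fell in shControl and 5 rose and 3 fell in sh*Ppargc1b*. Over all genes tested, 23.7% rose in shControl and 21.4% in sh*Ppargc1b*. The median log2 fold change of the flanking genes in shControl was -0.05, against -0.03 over all genes and 2.94 over the members. Among the flanking genes, *Lig3*, the gene of a DNA ligase, fell by 0.43 ± 0.06 (adjusted p = 1.35e-05) and *Ap2b1*, the gene of a clathrin adaptor subunit, rose by 0.24 ± 0.04 (4.71e-05). Other flanking genes that rose were *Unc45b*, which lies next to *Slfn5*, by 2.23 ± 0.47 (9.95e-04) at 0.290 CPM on average, and the pseudogene *Gm11427* by 1.19 ± 0.09 (2.64e-08) at 19.8 CPM. *AI662270* rose by 0.80 ± 0.07 (6.93e-08) at 34.1 CPM, and *Rffl* by 0.18 ± 0.07 (0.0414) at 53.9 CPM.

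**Figure D5:**
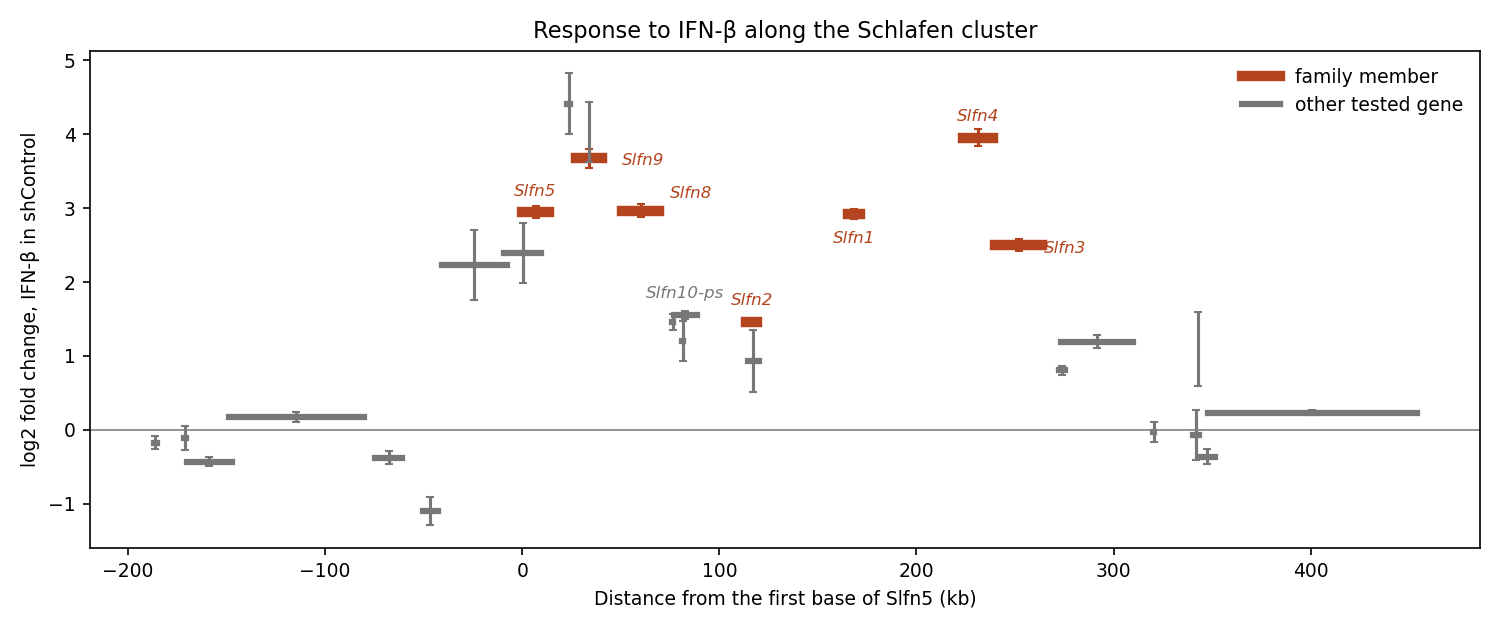
The log2 fold change with IFN-β in shControl, with its SE, for each tested gene within 200000 bases of the Schlafen cluster, drawn as a bar over its extent in kb from the first base of *Slfn5*. Family members lie between 1.46 and 3.95, and genes outside the cluster lie between -1.10 (*Nle1*) and 2.23 (*Unc45b*).

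Other parts of the interferon system give the setting of the family's response. Of 14 genes of type I interferon signalling, 14 rose with IFN-β in shControl cells, as did 13 in sh*Ppargc1b* cells, with a median log2 fold change of 0.97 and 0.82, below that of the Schlafen genes. *Stat2*, the gene of a transcription factor of this pathway, rose by 2.66 ± 0.05 on the log2 scale in shControl (adjusted p = 3.04e-15). All 16 canonical interferon-stimulated genes rose in each kind of cell, with medians of 4.69 and 4.02, above that of the Schlafen genes. With the knockdown and no IFN-β, 6 of these 16 were higher and 0 lower, against 12.4% and 11.1% of all genes tested. With IFN-β 0 were higher and 5 lower, against 11.5% and 12.7%. The interaction was negative for all 16 and passed for 4, against 0.669% of all genes. Among the 4 were *Bst2* (-0.50 ± 0.07, adjusted p = 0.00447) and *Isg15* (-0.62 ± 0.13, adjusted p = 0.0489). *Slfn5* was also higher without and lower with IFN-β, with an interaction that passed. *Slfn4* was higher at rest and was not called with IFN-β, and *Slfn3* and *Slfn1* fell with the knockdown at rest. All 7 members had a negative interaction, at -5.12e-04 for *Slfn1*. The receptor subunit genes *Ifnar1* and *Ifnar2* differed by 0.05 ± 0.05 and 0.09 ± 0.06 with the knockdown at rest (adjusted p = 0.527 and 0.319).

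Genes that act in tRNA cleavage and on stalled ribosomes, the processes in which Schlafen proteins are known to take part, showed no common direction. Of 12 such genes 3 rose and 5 fell with IFN-β in shControl, where 23.7% of all genes tested rose. Their median log2 fold change was -0.08, against -0.03 over all genes. *Gtpbp2*, which rescues stalled ribosomes, rose by 0.93 ± 0.05 (adjusted p = 7.01e-10). *Nsun2*, which methylates tRNA and shields it from cleavage, fell by 0.77 ± 0.08 (adjusted p = 4.72e-07). With the knockdown and no IFN-β 3 were lower and 0 higher, against 11.1% and 12.4% of all genes. Among the 3 was *Rnase4*, the gene of a secreted ribonuclease, which fell by 0.66 ± 0.08 (adjusted p = 1.51e-05). With IFN-β 4 were lower and 2 higher, against 12.7% and 11.5%.

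For each member, the 3 genes whose log2 CPM followed it most closely over the 12 libraries were as follows. *Slfn4* was nearest to *Ifit3* (Pearson r = 0.999), *Oasl1* and *Ifit3b*, and *Slfn5* to *Ddx58*, which encodes the RNA sensor RIG-I, followed by *Oas1a* and *Trim30a*. *Slfn2* was nearest to *Trafd1*, *Daxx* and *Parp11*, and *Slfn1* to *Phf11b*, *Tnfsf10* and *Gm5431*. *Slfn3* was nearest to *Psme2b*, *Itpr1* and *Gm5970*, *Slfn8* to *Gbp6*, *Ifi203-ps* and *Sp100*, and *Slfn9* to *Pnp*, *Iigp1* and *Trim12a*. All of these correlations were 0.997 or more after rounding, and since the 6 IFN-β libraries stand apart from the 6 unstimulated libraries for every such gene, they reflect that split and carry no test.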

How the data were processed

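Per the labels, the 12 libraries were placed in 4 groups of 3. The authors depleted ribosomal RNA, trimmed read pairs with Trim Galore 0.6.0 and mapped them to mm10 (GRCm38) with STAR 2.7.8a, as the submitters' processing notes name them, while the study's methods name another STAR release. The deposited values are raw counts, that is, how many uniquely mapped read pairs STAR assigned to each GENCODE gene, not normalized. The strand setting is not given in the sources used here, so reads of *Slfn5* and its antisense gene may not be separated.

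Counts were fitted with edgeR 4.0.16 (R 4.3.3): filterByExpr (minimum count 10, minimum total 15), TMM scaling, and quasi-likelihood F-tests on all 12 libraries with 1 mean per group. The Benjamini-Hochberg adjustment ran over 18228 genes, with a threshold of 0.05. Every adjusted p above comes from this fit unless another tool is named. The interaction is the IFN-β effect in sh*Ppargc1b* minus that in shControl. RPKM is TMM-scaled CPM per kilobase of merged exons of GENCODE M21, a later release than the authors' own. Proteins were aligned with Biopython 1.88. Scripts were tested on simulated data. Replicate pairs differed beyond sampling noise (chi-square per degree of freedom 8.54 to 21.3), so none was counted as a duplicate.

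The members, gene lists and motifs were chosen with earlier results of these data known. Genes outside the family are named from those lists, for the locus, or as the 3 genes with the highest correlation to each member among those above a mean log2 CPM of 3. Within the lists, examples were picked after their values were seen. Alternatives were other scalings and filters, DESeq2 1.42.0, limma 3.58.1, the 6 libraries compared, a block for runs of library codes, leaving out each library, and summed counts of near-identical copies.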

Additional observations from a re-analysis of the deposited data

Results flagged for a closer look

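The response of *Slfn5* to IFN-β differed between the 2 hairpins by a test of the difference itself. The edgeR interaction was -0.51 ± 0.11 on the log2 scale (adjusted p = 0.0383), from a response of 2.94 in shControl and 2.44 in sh*Ppargc1b*. In sh*Ppargc1b* cells the resting level was higher in mean (299 against 246 CPM, with overlapping libraries) and the level with IFN-β was lower in all 3 libraries (1604 to 1635 against 1866 to 1923 CPM). The sign was negative in all 19 alternative analyses, with values from -0.60 to -0.41, and the call was lost in 11 of them. The summed level of the canonical interferon-stimulated genes moved the same way, and its part in this result was not tested.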

How the results depend on the processing

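Of 723 recomputed log2 fold changes of the members, 685 kept their side of the threshold, and those among them that passed kept their direction. All responses to IFN-β kept both. Some differences that did not pass changed sign: that of *Slfn8* with the knockdown without IFN-β ran from -0.20 to 0.03. Leaving out a library gave 1 to 2 members higher and 1 to 3 lower with the knockdown without IFN-β, 5 to 6 lower with IFN-β, and 0 to 2 with a lower interaction. With the 6 unstimulated libraries alone, 1 member was lower without IFN-β. With the further demand of a change of 2-fold or more, 0 members were higher or lower with the knockdown and 0 had a lower interaction, since no such difference reached that size. The interaction passed for 0 members with library totals or a minimum count of 50, for 2 with DESeq2 (*Slfn5* and *Slfn2*) or a block for runs of library codes (*Slfn5* and *Slfn4*), and for 3 with all genes that had at least 1 count (*Slfn5*, *Slfn4* and *Slfn9*). *Slfn3* reversed to 0.20 without IFN-β when its counts were summed with those of *Slfn4*, the more abundant of the 2. *Slfn9* passed without IFN-β with all genes (-0.30) and with the block (-0.33). Summing *Slfn8*, *Slfn9* and *Slfn10-ps*, an alternative chosen after seeing the data, changed no call of *Slfn8*. By CPM without length, *Slfn2* held 31.8% and 13.2% of the family level in shControl without and with IFN-β, and 29.6% and 13.7% in sh*Ppargc1b*. With library totals in place of TMM the median over all genes moved to -0.27 for the response of shControl cells and -0.22 for that of sh*Ppargc1b* cells, and all 7 members still rose. The labels carry no replicate numbers, so the block for runs of library codes was the only fit with a block. Within a hairpin, libraries of the same run had like sums of the 10 neutrophil markers. In shControl these were 42.7, 97.5 and 77.8 CPM without IFN-β and 40.1, 102 and 81.8 CPM with it. In sh*Ppargc1b* they were 110, 92.0 and 162 CPM without IFN-β and 119, 88.7 and 166 CPM with it. The main fit did not use this pairing. Depth did not limit the members, whose lowest count in a library was 516.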
